A study of Mus musculus with 5 samples.

Results

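Neurotransmitter receptor subunits formed a group of 5 genes on an array of developing mouse cerebellum: Gabra6 and Gabrd, which encode the alpha6 and delta subunits of GABA-A receptors, Glrb, which encodes the beta subunit of glycine receptors, and Grin2c and Gria1, which encode the GluN2C subunit of NMDA receptors and the GluA1 subunit of AMPA receptors. Members were the probes whose only gene symbol was one of these names. This gave 1 probe per gene, 5 of 897 probes, 787 of which carried a single symbol and together named 773 genes. Total RNA of the cerebellum had been hybridised at embryonic day 18 (E18) and on days 7, 14, 21 and 56 after birth (P7 to P56). Each age has 1 column, a mean over 2 arrays per the labels. The sources used here do not give the strain, the sex or the number of animals, nor whether the arrays carried RNA of separate animals. No treatment, transgene or deletion is named for any age, and the ages differ in nothing else that the labels state. With 1 column per age there is no replicate spread of any difference and no p-value, and the number of arrays limits the precision.

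Fast inhibition in the brain runs through ligand-gated chloride channels: GABA-A receptors and glycine receptors are built of 5 subunits each, and the subunit mix sets where a receptor sits and how it responds. In the cerebellum, alpha6 and delta are hallmarks of mature granule cells, where receptors holding both lie outside synapses and carry tonic inhibition. The glycine receptor beta subunit binds the scaffold gephyrin and holds the receptor at synapses. Fast excitation runs through AMPA receptors, and NMDA receptors add a slower current; GluN2C is the NMDA subunit typical of mature granule cells, while GluA1 is made by Bergmann glia and by some neurons. Values of whole tissue cannot tell fewer cells of a type from less RNA per cell.

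The deposited values span 0.01 to 100. They were taken as percent: within an experiment a probe's highest age would be 100%, and the column would hold the mean of both experiments. Of all probes, 420 probes reach exactly 100 at 1 age and 0 reach it at 2 or more. Ages of a gene can therefore be compared with each other, and levels of different genes cannot. Values under 1% were set to 1% before folds were taken, which turns such folds into lower bounds. The words rose and fell are kept for differences of 2-fold or more. If this reading of the scale holds, each of the 2 experiments behind a mean lies between 0 and 100. A mean of 94.23% then leaves each experiment between 88.46% and 100%, and a gap of over 50 points between the means of 2 ages needs a move in the same direction in both experiments.

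Start-site sequences are shown for the 3 members that the RefSeq promoter table matched, Gabra6, Grin2c and Glrb, because the first pair moved together and the last followed another course. The windows run 5′ to 3′ on the gene's strand from 250 bases before the start to 50 bases after it in build GRCm38.p6. They lie at chr11:42321023-42321322 (minus strand) for Gabra6, chr11:115267194-115267493 (minus strand) for Grin2c and chr3:80913611-80913910 (minus strand) for Glrb. Capitals mark every match, on either strand, to the nuclear factor I core TTGGC, the CRE core TGACG or the E-box CANNTG, and no matches overlap.
Gabra6: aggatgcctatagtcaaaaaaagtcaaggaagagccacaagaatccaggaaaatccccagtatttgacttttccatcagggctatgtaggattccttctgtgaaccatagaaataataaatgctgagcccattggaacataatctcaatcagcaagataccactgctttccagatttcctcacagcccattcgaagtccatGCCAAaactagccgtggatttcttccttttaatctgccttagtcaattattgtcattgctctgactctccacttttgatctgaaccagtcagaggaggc
Grin2c: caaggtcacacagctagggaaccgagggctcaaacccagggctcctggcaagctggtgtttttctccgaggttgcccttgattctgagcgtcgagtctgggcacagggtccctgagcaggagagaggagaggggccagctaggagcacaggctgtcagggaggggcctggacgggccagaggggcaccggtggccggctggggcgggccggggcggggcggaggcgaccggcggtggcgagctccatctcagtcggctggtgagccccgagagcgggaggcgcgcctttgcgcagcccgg
Glrb: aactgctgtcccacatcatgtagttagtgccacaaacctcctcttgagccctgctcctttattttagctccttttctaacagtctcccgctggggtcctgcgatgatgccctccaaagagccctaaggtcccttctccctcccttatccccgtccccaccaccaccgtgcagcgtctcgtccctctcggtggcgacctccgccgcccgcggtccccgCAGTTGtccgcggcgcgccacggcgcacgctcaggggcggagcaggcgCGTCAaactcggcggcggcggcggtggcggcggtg
The Gabra6 window holds 1 nuclear factor I core, GCCAA on this strand, which begins 49 bases before the start, and neither of the other motifs. Nuclear factor I proteins are transcription factors of the granule cell lineage. The Glrb window holds 1 E-box, CAGTTG, and 1 CRE core, CGTCA on this strand, and the Grin2c window holds none of the 3. Such letters are common: 46.7% of the 32851 windows in the table hold TTGGC, 20.8% hold TGACG and 72.3% hold CANNTG. Base composition separated the windows, with 42% G and C in Gabra6 against 70% in Grin2c and 65.7% in Glrb, and a median of 52.7% over all windows. A match is a description of these letters and not a binding site.

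The adult cerebellum was first compared with the embryonic one. All 5 receptor subunit genes rose from E18 to P56, beside 22.6% of all probes, while 52.5% of probes fell. Most probes thus differed by 2-fold or more between these ages. Whether the probes had been chosen for a change with age was not tested. If so, any member would differ between some ages by that choice alone. The shares of probes given here and below describe these probes and not all genes of the cerebellum. The median member differed by 2.86 on the log2 scale and the median probe by -1.07. In each of the 5 the means differed by more than 50 points, which needs an upward move in both experiments; this was so for 18.7% of all probes. With quantile normalization each member also stayed higher at P56, past 2-fold, by 1.84 (Gria1) to 5.15 (Gabrd) on the log2 scale. Division of the columns by their medians, 84.49% at E18 and 41.97% at P56, raises the difference of every member. That scaling could therefore not take any of them under 2-fold. Within the group, the rises differed in size and in the age at which they happened.

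Gabra6 was nearly silent in the late embryo and close to its highest value by P14. It stood at 0.72% at E18, 4.67% at P7, 94.23% at P14, 97.42% at P21 and 99.82% at P56. The first 2 ages were low and the last 3 high, with nothing between. From P7 to P14 it rose 20.2-fold, by 89.6 points, and 1 of the 897 probes gained more points in that week. Each experiment must have gained at least 79.1 of those points. Later differences were small, 3.19 points from P14 to P21 and 2.4 points over the following 35 days, and the experiments' ranges at P14 (88.46% to 100%), P21 (94.84% to 100%) and P56 (99.64% to 100%) overlapped. The order of these 3 ages is therefore not settled by the means. At P56 the gene was at least 99.8-fold higher than at E18. From E18 to P7 it was at least 4.67-fold higher, a rise of 3.95 points that rests on low values and turned to -0.53 (log2) with quantile normalization.

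Gabrd, the partner of Gabra6 in extrasynaptic granule cell receptors, started even closer to the bottom of its scale, and its mean at P14 lay under that at P21. It stood at 0.02% at E18, 0.61% at P7, 71.8% at P14, 94.56% at P21 and 79.46% at P56. Both early values lie under 1%, so no fold is given between them. From P7 to P14 the gene was at least 71.8-fold higher, a gain of 71.2 points, and at least 42.4 points in each experiment. The next week added 22.8 points (1.32-fold), and P56 stood 15.1 points under P21; neither difference reached 2-fold. Its highest age was P21, but the range open to each experiment at P56, 58.92% to 100%, overlapped that at P21, 89.12% to 100%, so a decline in the adult is not shown. The range at P14, 43.6% to 100%, also overlapped that at P21, so the order of P14 and P21 is not settled either. At P56 it was at least 79.5-fold higher than at E18.

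Grin2c followed the course of Gabra6 from a higher start. The values were 11.53% at E18, 8.71% at P7, 89.71% at P14, 93.85% at P21 and 83.5% at P56. Before P14 it was low at both ages, and the E18 and P7 ranges of each experiment, up to 23.06% and 17.42%, overlapped. From P7 to P14 it rose 10.3-fold, by 81.0 points, with at least 62 points in each experiment; 3 probes of the table gained more. P21 was its highest age, and the P56 value lay 10.35 points lower (1.12-fold), within the ranges of the experiments. The rise from E18 to P56 was 7.24-fold.

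The mean of Gria1 lay well above the floor before birth and climbed without a step of 2-fold. It stood at 29.59% at E18, 39.84% at P7, 70.71% at P14, 80.82% at P21 and 100% at P56. The range open to each experiment was wide, 0% to 59.18% at E18, 0% to 79.68% at P7 and 41.42% to 100% at P14. A jump in 1 experiment, or a value near 0 at E18 in 1 of them, is therefore not excluded. Each age was higher than the one before. A value of exactly 100 means that P56 was the highest age in both experiments. No single step reached 2-fold: the largest, from P7 to P14, was 1.77-fold or 30.9 points, and 18.3% of all probes gained more points there. The rate was 4.41 points per day from P7 to P14, 1.44 from P14 to P21 and 0.55 from P21 to P56. From E18 to P56 the gene rose 3.38-fold, by 70.4 points.

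Glrb had nearly the same profile as Gria1. Its values were 28.1% at E18, 41.27% at P7, 65.58% at P14, 84.38% at P21 and 98.17% at P56. The range open to each experiment was again wide, 0% to 56.2% at E18, 0% to 82.54% at P7 and 31.16% to 100% at P14. It too was higher at every age than at the one before, and its largest step was from P7 to P14, at 24.3 points or 1.59-fold. The steps that followed were 18.8 points to P21 and 13.8 points to P56. From E18 to P56 the gene rose 3.49-fold. Neighbouring ages of Gria1 and Glrb differed by less than 50 points throughout, so the experiments need not both have moved at any one step, except that P56 in Gria1 was the highest age of both.

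**Figure D1:**
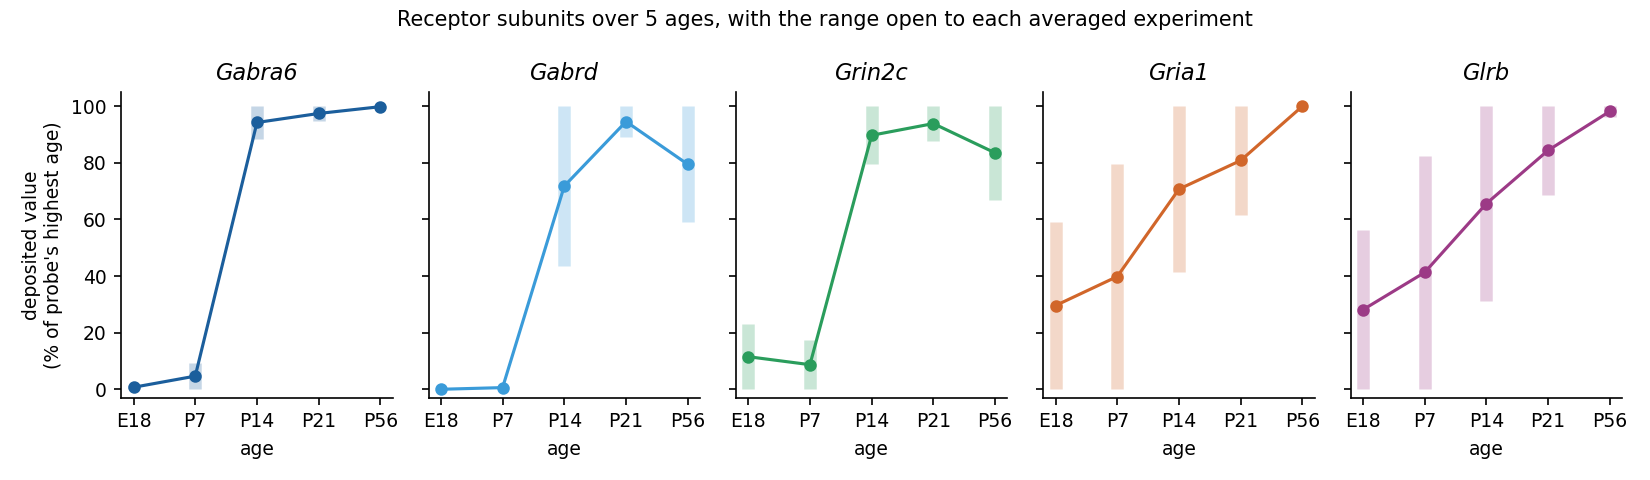
Deposited value (percent of the probe's highest age) of each receptor subunit at the 5 ages, equally spaced; points are the columns and pale bars the range in which each of the 2 averaged experiments must lie if both are between 0 and 100. Gabra6, Gabrd and Grin2c stand under 12% at E18 and P7 and over 70% at P14, whereas Gria1 and Glrb start at 29.59% and 28.1% and climb step by step.

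By step, the second postnatal week set the members apart. From P7 to P14, 3 of the 5 (Gabra6, Gabrd and Grin2c) rose, beside 14.4% of all probes, and 0 fell, beside 24.7%. The same 3 gained over 50 points, which 7.8% of all probes did. Relative to the median probe, which moved by -0.58 (log2), Gria1 and Glrb stood 1.41 and 1.25 higher. With columns divided by their medians, and also with quantile normalization, all 5 rose at this step. The column median was 82.77% at P7 and 55.54% at P14, so division by it raises the difference of every member here. For the 3 that rose on the values as deposited, the step covered 90.4% (Gabra6), 75.3% (Gabrd) and 95.1% (Grin2c) of the whole range of the gene over the 5 ages, against 43.8% for Gria1 and 34.7% for Glrb. All 5 genes first reached 50% of their highest value at P14, which was the case for 15.6% of probes. A straight line between P7 and P14 would put that point at postnatal day 9.25 for Glrb, 9.30 for Gria1, 10.3 for Grin2c, 10.5 for Gabra6 and 11.6 for Gabrd. The point is counted from 0 and not from each gene's lowest value, and Glrb and Gria1 already stood at 41.27% and 39.84% at P7. These days therefore give no order in which the rises began or passed their middle. No age between P7 and P14 was measured.

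Few members passed 2-fold at the other steps, although these steps together held most of the range of Gria1 and Glrb. From E18 to P7, 1 of 5 rose, Gabra6, beside 5.8% of probes, and 0 fell, beside 2.79% on the values as deposited. Under quantile normalization 0 rose at this step: the difference of Gabra6 was -0.53 (log2), and Gabrd and Grin2c were lower past 2-fold, at -1.16 and -1.08. From P14 to P21, 0 of 5 rose, beside 3.23% of probes, and 0 fell, beside 13.2%. From P21 to P56, 0 rose and 0 fell, beside 2.68% and 2.23%. At these 3 steps 0 of 5 gained over 50 points, beside 1.34%, 2.01% and 0.669% of probes. All 5 had their highest value at P21 or P56, as did 23.3% of probes: P21 for Gabrd and Grin2c (8.58% of probes), and P56 for Gabra6, Gria1 and Glrb (14.7%). The means of those last 3 were higher at each of the 4 steps, whatever the size, which held for 7.36% of probes. For Gabra6 the steps after P14 were only 3.19 and 2.4 points, between ages whose experiment ranges overlapped. With quantile normalization its difference from P21 to P56 was -0.04 (log2).

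**Figure D2:**
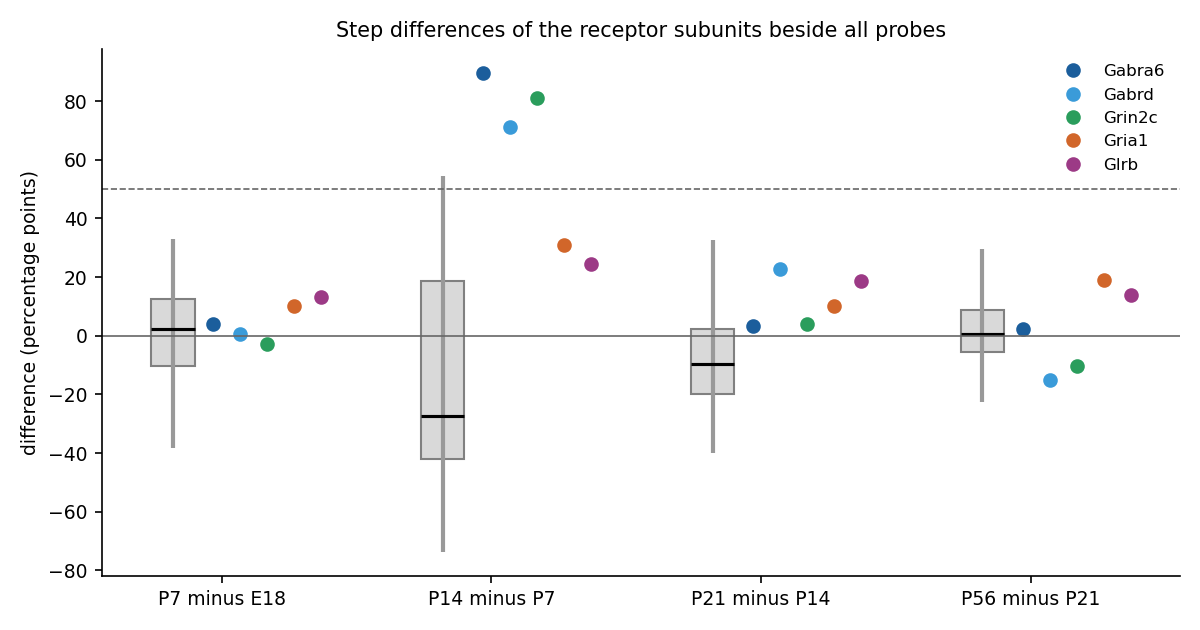
Difference between neighbouring ages in percentage points for each receptor subunit (coloured points) beside all 897 probes (box from the 25th to the 75th percentile with the median, grey line from the 5th to the 95th); the dashed line at 50 points is above which both averaged experiments must have moved up. Gabra6, Gabrd and Grin2c lie above that line from P7 to P14, at 89.6, 71.2 and 81.0 points, and no member does so at another step.

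Likeness between profiles was measured as the root mean square difference in percentage points over the 5 ages, a description over 5 columns that all probes share. Among the 10 pairs of members, Gria1 and Glrb were closest, at 3.05 points, and 0.0906% of the 401856 probe pairs in the table were at least as close. Gabra6 and Grin2c differed by 9.30 points, Gabrd and Grin2c by 10.4 and Gabra6 and Gabrd by 13.7. At least as close as these were 6.11%, 8.23% and 15.99% of all probe pairs, in that order. The 6 pairs that joined Gabra6, Gabrd or Grin2c to Gria1 or Glrb lay between 20.5 and 24.8 points. These 6 lay under the median of 30.9 over all pairs of probes, and 31.57% to 40.29% of those pairs were at least as close.

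Among probes with 1 symbol, the nearest to Gabra6 was Pvalb, the parvalbumin gene, active in Purkinje cells and in interneurons, at 2.97 points, with 2.37%, 9.41%, 95.6%, 100% and 96.59% from E18 to P56. Next came Hs3st1, a heparan sulfate sulfotransferase gene (7.88 points), Hsd11b1, the gene of an enzyme that regenerates active glucocorticoid (8.70), Grin2c, and Htra1, a secreted serine protease gene (11.8). Nearest to Gabrd was Gpd1, a glycerol-3-phosphate dehydrogenase gene (6.30 points). Its means at P21 and P56, 100% and 80.05%, stood in the same order as those of Gabrd, for which the experiments' ranges do not settle that order. St8sia5, a sialyltransferase gene (9.26), 1 of the 2 probes of the calcium pump gene Atp2a3 (9.77), Hs3st1 (10.1) and Nr4a1, an immediate early gene (10.1), followed. For Grin2c the 5 nearest were Hsd11b1 (5.35 points), Hs3st1 (6.64), Calb2, the calretinin gene (7.72), Pvalb (8.10) and Gpd1 (9.10).

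Gria1 lay nearest to Slc20a1, a phosphate transporter gene (2.98 points), then to Glrb, to the protein kinase C gene Prkcz (3.34), to 1 of the 2 probes of the G protein gene Gnai1 (3.97) and to Specc1 (4.48). After Gria1, the nearest to Glrb were the phosphofructokinase gene Pfkm (4.09 points), the same probe of Gnai1 (4.54), Specc1 (4.57) and Slc20a1 (4.60). The choice of scale mattered here: measured on the log2 scale, 8 of the 25 named neighbours were found again, 0 of 5 for Gabrd and 3 of 5 for Glrb, and on that scale Gria1 and Glrb were each other's nearest probe.

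**Figure D3:**
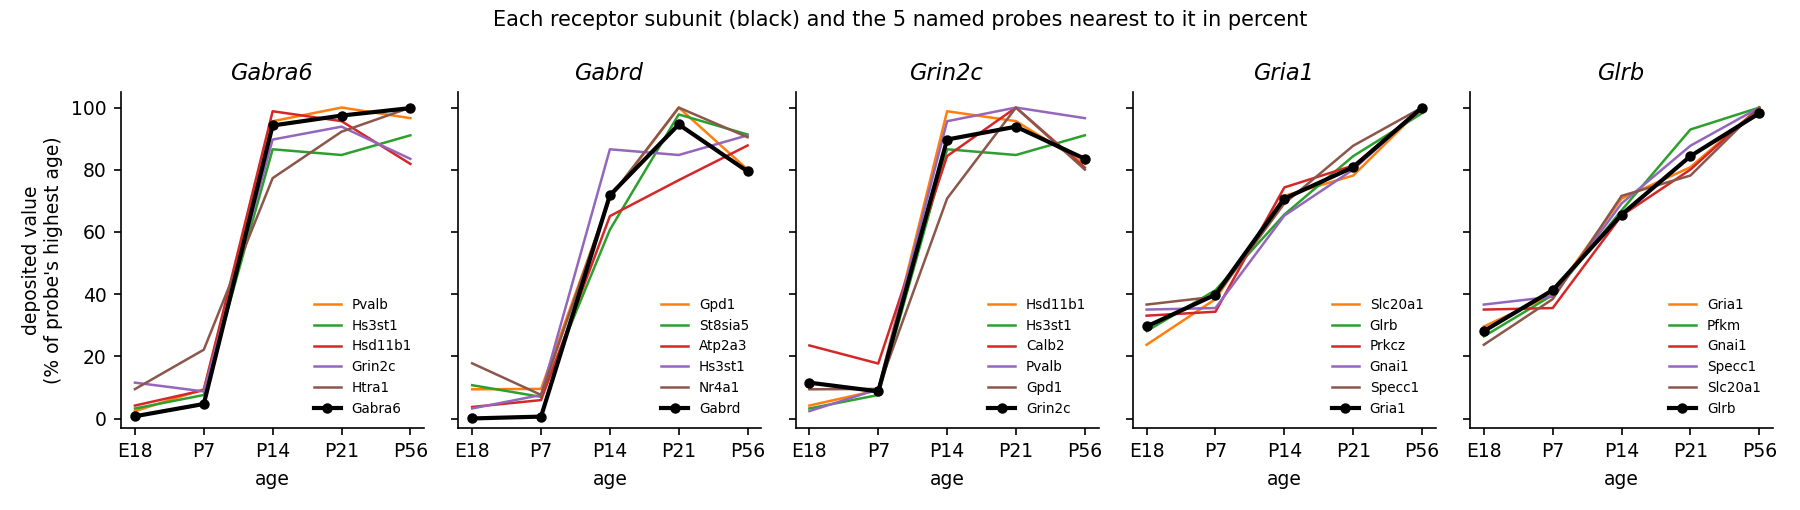
Each receptor subunit (black) and the 5 named probes with the smallest root mean square difference from it, as percent of each probe's highest age over the 5 ages, equally spaced. The neighbours of Gabra6 and Grin2c share the step from under 25% at P7 to over 70% at P14, and those of Gria1 and Glrb climb from between 23.72% and 36.64% at E18 to their highest value at P56.

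Other genes of the same signalling were taken from fixed lists. Of 23 further GABA and glycine receptor genes and 24 further glutamate receptor genes, 0 were among the probes with a single symbol, so no subunit exchange, such as between GluN2B and GluN2C, could be followed. Whether their absence reflects a choice of probes was not tested. Of 50 genes for anchoring, trafficking and clustering of receptors, 5 were measured, of which 3 rose from E18 to P56 and 0 fell, beside 22.6% and 52.5% of all probes (median 1.76, log2, against -1.07); with columns divided by their medians all 5 rose. Nptx1, the gene of a secreted pentraxin that clusters AMPA receptors, rose 11.5-fold, from 8.29% to 95.72%, and at P14 was only at 42.05%. Nsf, the gene of an ATPase of membrane fusion and AMPA receptor trafficking, rose 3.69-fold. Camk2b, the gene of a calmodulin-dependent kinase subunit, rose 3.38-fold. Gphn, the gene of gephyrin, to which the product of Glrb binds, stood at 42.78%, 68.93%, 99.33%, 71.67% and 84.24% from E18 to P56. By the means its highest age was P14, against P56 for Glrb. The ranges open to each experiment of Glrb, 31.16% to 100% at P14 and 96.34% to 100% at P56, overlapped, so this contrast is not settled. Gabarapl2, from the family of GABA-A receptor associated proteins, stood at 52.68% at E18 and 91.11% at P56.

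Of 32 genes for the synthesis and transport of these transmitters, 5 were measured, and 4 rose from E18 to P56 and 0 fell (median 1.51), beside 22.6% and 52.5% of all probes. Gad1, the gene of a GABA-synthesising enzyme, rose 2.80-fold and Slc32a1, the gene of the vesicular transporter for GABA and glycine, rose 2.85-fold, both to 100% at P56 and without a step of 2-fold. Slc1a6, the glutamate transporter gene of Purkinje cells, went from 24.7% at P7 to 100% at P14 and stood at 62.04% at P56. Dao, the gene of D-amino acid oxidase, which removes the NMDA receptor co-agonist D-serine, was at 0.02% at E18 and at P7 and was at least 100-fold higher at P56. Slc6a13, a GABA transporter gene of meninges and vessels, was the one whose value was lower, at 100% and 53.28%, short of 2-fold.

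Markers of the cells that could carry these receptors also moved. The granule cell list holds 3 of the members, and of its 8 other measured genes 5 rose from E18 to P56 and 0 fell (median 1.73). Over all probes, 22.6% rose and 52.5% fell in this comparison, and the counts of this and the following lists stand beside those shares. Kcnj9, a potassium channel gene, rose 21.8-fold, Etv1, a transcription factor gene, 10.3-fold, Snap25, a membrane fusion gene of nerve terminals, 5.32-fold, Calb2 3.43-fold and Kcnd2, another potassium channel gene, 3.22-fold. Neurod1, which encodes a transcription factor, was at 56.74% in the embryo, between 94.22% and 96.08% from P7 to P21 and at 40.64% in the adult. The nuclear factor I genes Nfia and Nfix were both highest at P7. Nfia stood at 48.98% at E18, 100% at P7, 50.17% at P14 and 36.96% at P56, and Nfix at 40.52%, 100%, 93.42% and 64.84%. Any link between these genes and Gabra6 was not tested. All 7 measured of 12 granule cell progenitor genes fell from E18 to P56 (6 of 7 under either other scaling of the columns), beside 52.5% of all probes, their median value going from 95.6% at P7 to 17.9% at P14. All 6 measured of 11 Purkinje cell genes rose, with a median value of 32.0% at P7 and 95.4% at P14. For Atp2a3, 2 probes were averaged, which went from 5.92% to 65.09% and from 18.7% to 26.3% between P7 and P14. The 3 measured Bergmann glia and astrocyte genes other than Gria1, from a list of 12, also rose from E18 to P56. Gfap and Aqp4 were highest at P7, at 100% and 98.86%, and stood at 68.7% and 77.72% at P14. S100b went from 19.63% at P7 to 62.9% at P14 and was highest at P56. Of 10 interneuron genes 4 were measured, and 3 rose (Gad1, Slc32a1 and Pvalb) and 1 fell (Sst). Gad1 and Pvalb are also on the Purkinje cell list. Of 10 oligodendrocyte genes 5 were measured, and 4 rose and 1 fell, or 0 fell when columns were divided by their medians. All 6 measured of 8 genes of meninges and vessels fell, beside the same 52.5%, or 3 of them with columns divided by their medians. The single measured forebrain gene, Neurod2, which granule cells also make, stood at 44.52% at E18 and 72.36% at P56. Pcp2 and Calb1, defining genes of Purkinje cells, were among the measured genes, but a scale set by each probe's own highest age gives no level with which to check the labelled tissue. The part of these cells in the members' rises was not tested.

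**Figure D4:**
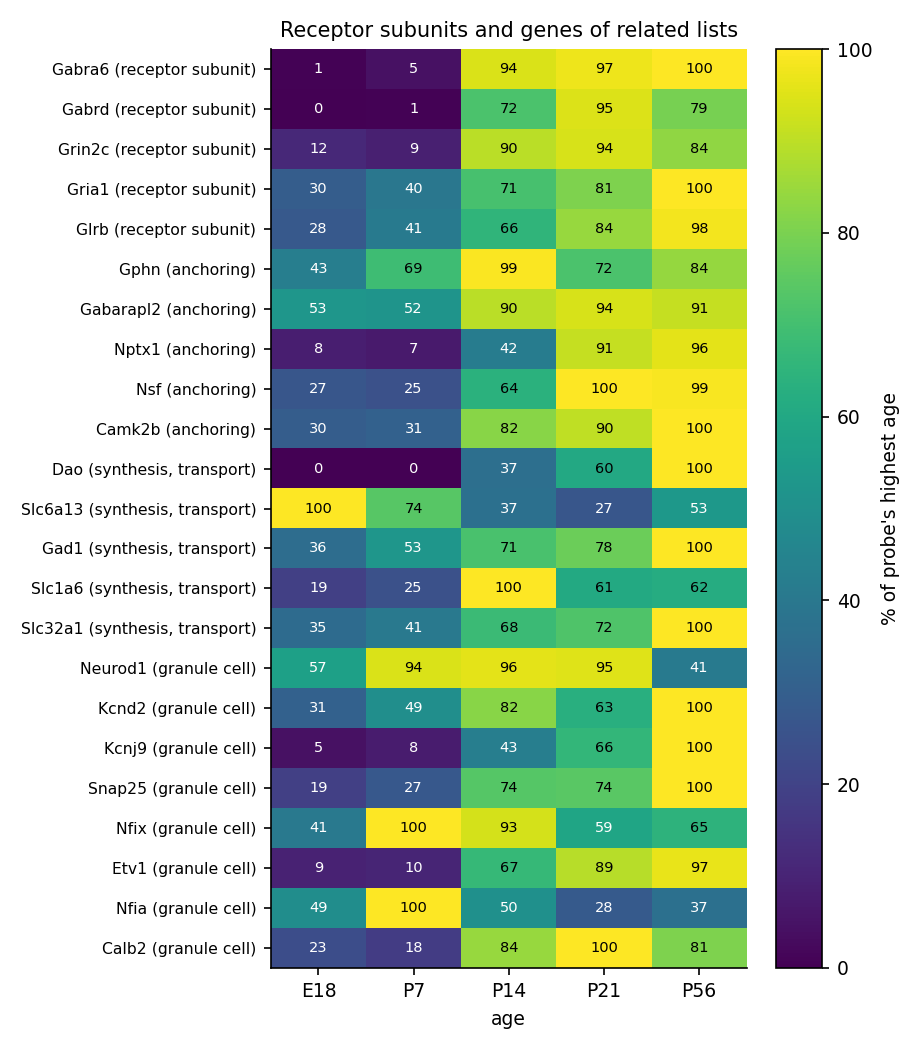
Value of each receptor subunit and of the measured genes of the anchoring, synthesis and transport, and granule cell lists at the 5 ages, as percent of each probe's highest age (colour and rounded number). Most rows brighten between P7 and P14, while Slc6a13 darkens from 100% at E18 and Nfia and Nfix are brightest at P7.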

How the data were processed

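Per the labels, a column holds mean signals of 2 array experiments. The scanner, background correction, normalization and build were not given in the sources used here. What the authors deposited was taken as percent of the probe's highest age; this rests on the values alone, since no label states it. Symbols came from the platform annotation, which can be old: 787 probes had 1, 16 several and 94 none.

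Differences were taken between log2 percents, with a floor of 1% (20 values lay under it) and a threshold of 2-fold, and with no test, since each age has 1 column. Calculations used Python 3.11.15 with pandas 2.3.3 and numpy 2.4.6 and were tested on simulated data. Members, lists, comparisons and alternatives were chosen with earlier results of these data known. Planned for naming were the members, their 5 nearest single-symbol probes and the measured anchoring, synthesis and transport, and granule cell genes. Genes of the other marker lists were to be named where shared with these. Pcp2, Calb1, Neurod2 and Mog were added after their values were seen, and Gfap, Aqp4, S100b and Sst were also named outside the plan. Promoter windows came from RefSeq (GRCm38.p6). Alternatives were other floors, a pseudocount, 2 other scalings of the columns, other thresholds and other measures of likeness.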

Additional observations from a re-analysis of the deposited data

How the results depend on the processing

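Under each of the 8 alternatives, 5 of 5 members were higher past the fold threshold at P56 against E18, and 0 were past it at P21 against P14 or at P56 against P21. Division by column medians and the 1.5-fold threshold could not lower the first of these counts. At P7 against E18 the count of 1 became 0 with the floor at the 10th or the 25th percentile of values, 0 with quantile normalization and 2 without a floor. Those 2 percentile floors, 20.4% and 35.8%, lie above the Gabra6 values at E18 and P7 (0.72% and 4.67%), which sets that difference to 0. At P14 against P7 the count of 3 became 5 at 1.5-fold, 5 with quantile normalization and 5 when columns were divided by their medians. Since the column median is lower at P14 than at P7, that division raises the members' differences at this step. Of 150 values of single genes under 6 alternatives, 10 changed side of the threshold or reversed from a difference past 2-fold. The 1 such reversal was Gabra6 at P7 against E18, to -0.53 with quantile normalization. Under that scaling Gabrd (-1.16) and Grin2c (-1.08) were lower past 2-fold at that step. Changes of sign in differences under 2-fold were not counted, such as Gabra6 at P56 against P21, from 0.035 to -0.040 with quantile normalization. Of the 25 nearest probes, 8 were found again on the log2 scale and 18 with columns divided by their medians. Counts of list genes under other scalings were added after seeing the data: 5 anchoring genes were higher with either, in place of 3. The cause of the other changes was not tested. No paired analysis was possible because each age has 1 column.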

Other observations

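Few probes had the off-then-on course of Gabra6, Gabrd and Grin2c. With limits taken from these 3 genes after their values were seen, under 12% at both E18 and P7 and over 70% at P14, 9 of the 897 probes qualified. Beside the 3 receptor subunits these were Pvalb, Hs3st1, Hsd11b1, Gpd1, Mog, which encodes a protein of the myelin sheath, and 1 probe without a single symbol. Mog parted from the others in the adult, with 84.23% at P21 and 46.78% at P56, against 79.46% to 99.82% at P56 in the receptor subunits.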
